A study of Mus musculus with 15 samples.

Results

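The respiratory burst and lysozyme genes Cybb, Cyba, Ncf1, Ncf4, Rac2, Mpo, Nos2, Lyz1 and Lyz2 were chosen by symbol, matched to the Ensembl identifiers of the deposited counts, and make up 9 of the 19456 genes of the table. The genes were measured by RNA sequencing in 15 libraries of cells sorted by flow cytometry from adult male wild-type C57BL/6 mice, with no treatment. The populations were Ly6Chi blood monocytes (n = 3) and small intestine macrophages lacking Tim-4 and CD4 (Tim-4-CD4-), with CD4 alone (Tim-4-CD4+) or with both (Tim-4+CD4+; n = 4 each). Every library was a pool of cells from 3 mice, or from 4 mice for monocyte replicate 2. The macrophages were sorted on 4 occasions and the monocytes on 3, blood and gut cells were isolated differently, and the occasion of a given library is not named, so that tissue, isolation and cell type cannot be told apart between monocytes and macrophages. The populations were compared to ask how the macrophage subsets differ from each other and from the monocytes that can give rise to gut macrophages.

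Phagocytes kill ingested microbes in part through the NADPH oxidase, a membrane flavocytochrome of gp91phox (Cybb) and p22phox (Cyba) that passes electrons to oxygen and makes superoxide once p47phox (Ncf1), p40phox (Ncf4) and a Rac GTPase such as Rac2 join it from the cytosol. Myeloperoxidase (Mpo), a protein of neutrophil granules, turns the resulting peroxide into hypochlorous acid, and inducible nitric oxide synthase (Nos2) makes nitric oxide from arginine. Lysozyme cuts bacterial peptidoglycan, and in the mouse Lyz2 is known as the lysozyme of monocytes, macrophages and neutrophils and Lyz1 as that of intestinal Paneth cells.

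The pair of lysozyme genes lie next to each other on chromosome 10, and their coding sequences are shown because their similarity bears on how reads can be told apart. In GRCm38 (GENCODE M21) the coding region of Lyz1 spanned chr10:117288583-117292838 and that of Lyz2 chr10:117278121-117282242, both on the minus strand and both 447 bases long without introns. The sequences were 95.1% identical, with 22 differing bases. Below are bases 1 to 300 of each, 5′ to 3′ from the start codon, with the 20 differing bases of this stretch in capitals.
Lyz1: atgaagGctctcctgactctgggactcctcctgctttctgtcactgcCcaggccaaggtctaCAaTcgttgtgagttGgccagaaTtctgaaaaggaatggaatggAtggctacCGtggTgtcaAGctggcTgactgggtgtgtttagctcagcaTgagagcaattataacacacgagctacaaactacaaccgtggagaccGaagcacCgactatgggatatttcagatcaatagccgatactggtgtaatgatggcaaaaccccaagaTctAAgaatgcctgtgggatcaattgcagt
Lyz2: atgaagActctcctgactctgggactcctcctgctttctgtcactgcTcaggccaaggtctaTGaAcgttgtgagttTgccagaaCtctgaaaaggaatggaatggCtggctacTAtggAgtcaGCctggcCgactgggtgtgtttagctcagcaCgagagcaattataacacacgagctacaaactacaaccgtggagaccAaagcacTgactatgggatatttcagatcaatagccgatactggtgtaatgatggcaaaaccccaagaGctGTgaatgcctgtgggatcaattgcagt
Of the 1199 stretches of 65 bases (the read length) in the reference transcript of Lyz1 and the 1252 in that of Lyz2, 103 were found in both (8.59% and 8.23%), and the coding sequences shared 54 of 383. Only uniquely mapped reads were counted by the authors. Whether reads of Lyz2 were counted for Lyz1 was not tested.

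Total counts ran from 39388763 to 151510641 per library (median 63249039). Levels are given as CPM (counts scaled to a common library size) after scaling library sizes by the trimmed mean of M values (TMM), and as CPM per kb of exon only where genes are compared with each other. Of the sorting markers, Timd4 had a mean of 355 CPM in Tim-4+CD4+ macrophages and at most 1.70 CPM in the other populations. Mean Ly6c2 was 1092 CPM in monocytes and at most 1.72 CPM in macrophages. Mean Cd4 was 22.9 CPM in the CD4- subset and 531 (Tim-4-) and 816 CPM (Tim-4+) in the CD4+ subsets. The summed level of 6 monocyte markers, Ly6c2 among them, was 6049 to 9025 CPM in monocyte libraries. By library it was 601 to 882, 100 to 173 and 30.8 to 50.9 CPM in the macrophage subsets, Tim-4-CD4- first and Tim-4+CD4+ last. Mean Lyz1 and Lyz2 fell in that order too, and the part of monocyte transcripts in those levels was not tested. Tim-4+CD4+ replicate 1 stood apart: short genes were high and long genes low in it (median log2 deviation of the shortest genes minus that of the longest, 0.67, against -0.27 to 0.20 in the other 11 macrophage libraries), and results are given without it where it mattered. The summed level of B and plasma cell markers was 1965 to 5094 CPM in macrophage and 9.68 to 11.98 CPM in monocyte libraries, and the part of these transcripts in the results was not tested. In bulk samples, fewer cells of a type and less RNA per cell cannot be told apart.

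Cybb, Cyba, Ncf4, Rac2 and Lyz2 were lower in each macrophage subset than in monocytes, and Nos2 was higher. Differences were tested by edgeR's quasi-likelihood test over 15802 genes, of which 8 of the 9 were tested, since Mpo fell below the filter on low counts; a gene passed at a Benjamini-Hochberg adjusted p under 0.05. In Tim-4-CD4- macrophages 6 passed against monocytes, Nos2 being higher and Cybb, Cyba, Ncf4, Rac2 and Lyz2 lower, where 65.4% of all tested genes passed (37.3% higher and 28.1% lower). In Tim-4-CD4+ macrophages 7 passed, with Lyz1 lower as well, where 69.8% of all genes did (39.1% higher and 30.7% lower). In Tim-4+CD4+ macrophages the same 7 passed in the same directions, where 70.9% of all genes did (39.5% higher and 31.3% lower). Taken in either direction, these shares passing are near the background of these broad comparisons, which also share the same 3 monocyte libraries. By direction they are not: 5, 6 and 6 of the 8 genes were lower and 1 was higher. That is a larger part lower, and a smaller part higher, than among all tested genes. The median log2 fold change of the 8 genes was -0.68, -0.91 and -0.96 in the 3 subsets, against 0.08, 0.11 and 0.10 over all tested genes.

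Between macrophage subsets Lyz1 passed in each comparison and Lyz2 in 1. Tim-4-CD4+ macrophages differed from the Tim-4-CD4- subset in 1 of the 8, Lyz1, where 10.1% of all genes passed (5.53% lower in the CD4+ subset). Tim-4+CD4+ macrophages differed from the Tim-4-CD4- subset in 2, Lyz1 and Lyz2, both lower in the Tim-4+ subset, where 23.1% of all genes passed (11.9% lower). Tim-4+CD4+ macrophages differed from the Tim-4-CD4+ subset in Lyz1 alone, where 3.41% of all genes passed (1.34% lower). Taken in either direction, the shares passing in the first 2 of these comparisons are near the background, and the last count rests on 1 gene. The median log2 fold change of the 8 genes was -0.18, -0.21 and -0.07 in these comparisons, against -0.0029, -0.0047 and -0.0019 over all tested genes.

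**Figure D1:**
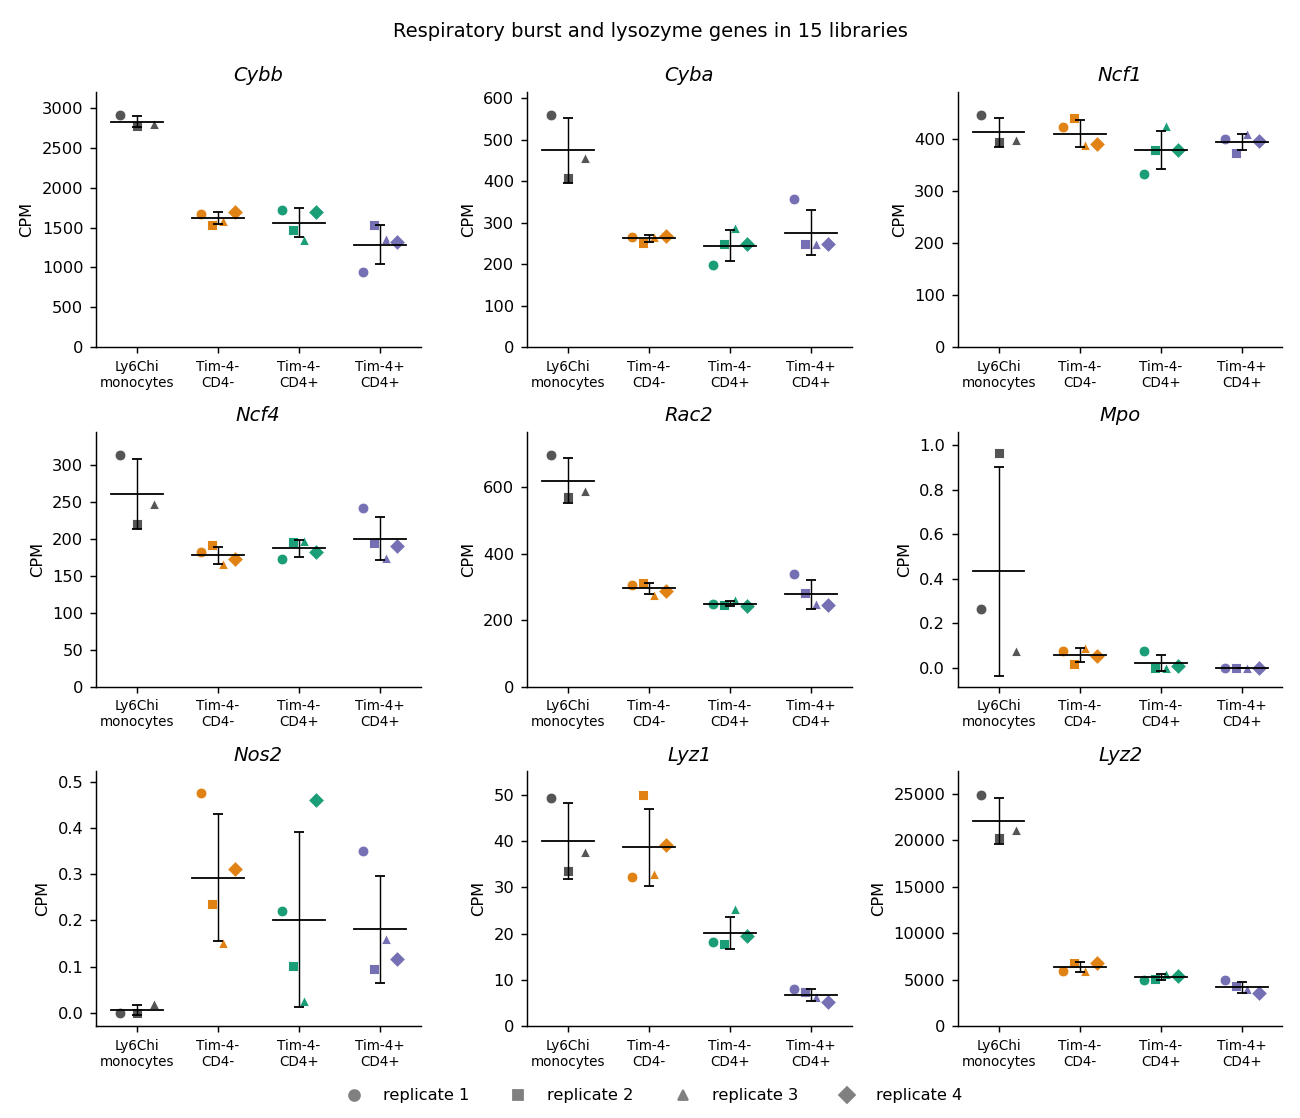
Level of each of the 9 genes in CPM, by library, in monocytes and the macrophage subsets; each point is a library, its shape giving the replicate, with the group mean as a line and the SD as a bar. Cybb, Cyba, Rac2 and Lyz2 were highest in all 3 monocyte libraries, Ncf1 overlapped in all populations, and Lyz1 in Tim-4+CD4+ macrophages (5.31 to 8.11 CPM) lay below every other library.

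Both chains of the flavocytochrome were lower in every macrophage library than in every monocyte library. Cybb, the catalytic chain (ENSMUSG00000015340.10, chromosome X, 9435252 to 9487771, minus strand), was at 2911, 2781 and 2802 CPM in monocytes, at 1671, 1534, 1588 and 1694 in Tim-4-CD4-, at 1728, 1471, 1348 and 1696 in Tim-4-CD4+ and at 940.1, 1534, 1352 and 1326 in Tim-4+CD4+ macrophages. It ranked 11th to 16th of all genes by count in monocytes, and the macrophage subsets lay close together below that level. The log2 fold changes against monocytes were -0.80 ± 0.13, -0.86 ± 0.13 and -1.14 ± 0.13 (SE; 1.75-, 1.81- and 2.20-fold lower; adjusted p = 4.5e-05, 1.9e-05 and 7.6e-07 by edgeR's quasi-likelihood test). Tim-4+CD4+ macrophages had the lowest mean, 1288 ± 249.9 CPM (SD, n = 4) against 1622 ± 74.1 in Tim-4-CD4- macrophages, but the highest library of the one and the lowest of the other both stood at 1534 CPM and the difference did not pass (log2 fold change -0.33, adjusted p = 0.059, with a range of 0.021 to 0.13 under the alternatives). The low mean owed much to the library that stood apart: without it the mean was 1404 ± 114 CPM (n = 3) and the log2 fold change -0.20 (adjusted p = 0.12), while without Tim-4+CD4+ replicate 2 the difference passed (-0.42, adjusted p = 0.021).

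Cyba, the smaller chain that holds gp91phox stable in the membrane (ENSMUSG00000006519.11, chromosome 8, 122424776 to 122432930, minus strand), was at 558, 406 and 457 CPM in monocytes. It was at 266, 250.1, 265 and 267 CPM in Tim-4-CD4-, at 197, 247, 286 and 247 in Tim-4-CD4+ and at 358, 249, 248 and 248 in Tim-4+CD4+ macrophages. Every macrophage library lay below every monocyte library, and Tim-4+CD4+ replicate 1 was the highest of the macrophages for Cyba as it was the lowest for Cybb. The log2 fold changes against monocytes were -0.85, -0.96 and -0.78 (SE 0.15 each; adjusted p = 7.7e-05, 2.1e-05 and 0.00015 by edgeR's quasi-likelihood test). Between subsets the log2 fold changes were -0.10, 0.07 and 0.18, none past the test, and that of Tim-4+CD4+ macrophages against the Tim-4-CD4- subset became -0.074 without Tim-4+CD4+ replicate 1.

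Per kb of exon the chains were at like levels, 488 CPM per kb of Cybb and 456 of Cyba on average in monocytes and 279 and 252 in Tim-4-CD4- macrophages. The ratio of Cybb to Cyba per kb was 0.933 to 1.22 in monocytes, 1.07 to 1.13 in Tim-4-CD4- and 0.843 to 1.57 in Tim-4-CD4+ macrophages. In Tim-4+CD4+ macrophages it was 0.470 in replicate 1 and 1.101, 0.974 and 0.957 in the others. Cybb is a long transcript and Cyba a short one. The lowest ratios were 0.470 in Tim-4+CD4+ replicate 1 and 0.843 in Tim-4-CD4+ replicate 3. Short genes stood highest in these macrophage libraries (0.67 and 0.20). That measure sets each library against the others of its own population, so Tim-4+CD4+ replicate 1 itself lowered it in the rest of its group. The low values of those libraries are therefore not read beside their ratios. The part of this length difference in the ratio was not tested.

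**Figure D2:**
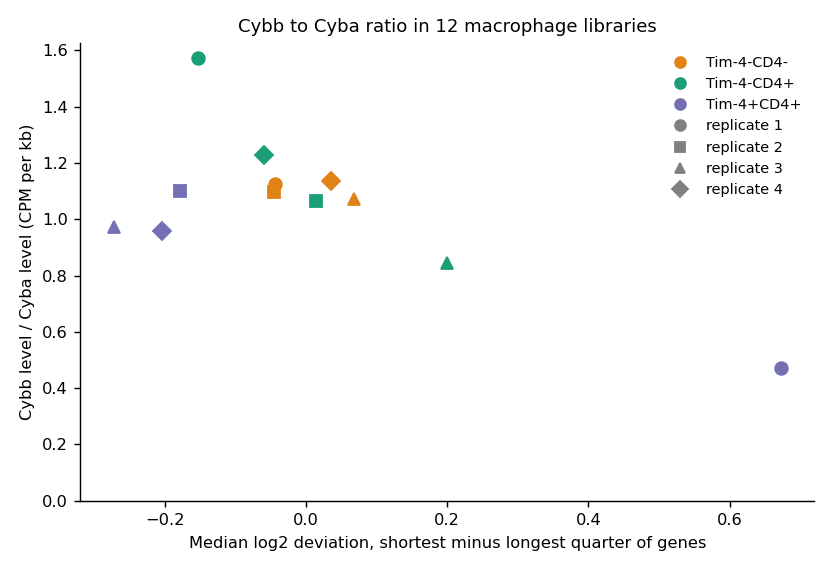
Ratio of Cybb to Cyba per kb of exon in the 12 macrophage libraries (vertical axis) against the difference in median log2 deviation between the shortest and the longest genes (horizontal axis); each point is a library, coloured by population and shaped by replicate. Tim-4+CD4+ replicate 1 lies alone at the right, with a ratio of 0.470.

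The cytosolic subunits did not move together. Ncf1, p47phox, the organiser of the complex (ENSMUSG00000015950.13, chromosome 5, 134220053 to 134229625, minus strand), was at 446, 395 and 399 CPM in monocytes, at 424, 440.0, 388 and 390.0 in Tim-4-CD4-, at 334, 379, 425 and 379 in Tim-4-CD4+ and at 399.7, 373, 409.7 and 397 in Tim-4+CD4+ macrophages. All populations overlapped. The log2 fold changes against monocytes were -0.01, -0.12 and -0.07 (adjusted p = 0.94, 0.24 and 0.53 by edgeR's quasi-likelihood test), with 95% intervals of -0.20 to 0.18, -0.32 to 0.07 and -0.26 to 0.13, so that a fall of the size seen for Cybb lay outside all of them. The sign of the first turned under several scalings and without single libraries, and that of the third under upper-quartile scaling and without a single library. Ncf1 overlaps Gtf2ird2 on the opposite strand, which had 317 to 1660 counts per library, and whether the counting used strand is not given in the sources used here.

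Rac2, the GTPase of blood cells that activates the oxidase (ENSMUSG00000033220.6, chromosome 15, 78559167 to 78572783, minus strand), was at 697, 572 and 589 CPM in monocytes. It was at 306, 312, 275 and 288 CPM in Tim-4-CD4-, at 249.6, 246, 261 and 244 in Tim-4-CD4+ and at 339.6, 280.3, 249.9 and 245 in Tim-4+CD4+ macrophages. No macrophage library reached the lowest monocyte library. The log2 fold changes against monocytes were -1.07, -1.31 and -1.15 (SE 0.11 each; 2.10-, 2.48- and 2.22-fold lower; adjusted p = 2.3e-07, 1.6e-08 and 7.4e-08 by edgeR's quasi-likelihood test). The Tim-4-CD4- libraries all lay above the Tim-4-CD4+ libraries, but the difference did not pass (log2 fold change -0.24, adjusted p = 0.17, with a range of 0.036 to 0.34 under the alternatives), other than in a fit of those subsets alone (-0.23).

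Ncf4, p40phox, which binds phosphoinositides of the phagosome membrane (ENSMUSG00000071715.11, chromosome 15, 78244801 to 78262580, plus strand), was at 314, 221 and 248 CPM in monocytes. It was at 182, 192, 166 and 173 CPM in Tim-4-CD4-, at 173, 196, 198 and 182 in Tim-4-CD4+ and at 243, 195, 174 and 191 in Tim-4+CD4+ macrophages. Only Tim-4+CD4+ replicate 1 reached into the monocyte range. The log2 fold changes of -0.55 ± 0.12, -0.48 ± 0.12 and -0.38 ± 0.12 (SE) passed the test (adjusted p = 0.00093, 0.0025 and 0.012 by edgeR's quasi-likelihood test). The latter pair rested on monocyte replicate 1, the highest library: without it they were -0.29 (adjusted p = 0.0501, range over the alternatives 0.00089 to 0.0501) and -0.19 (adjusted p = 0.19, range 0.0015 to 0.19). The last was also lost without Tim-4+CD4+ replicate 3 (-0.29) and under other settings.

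Of the other genes of the NADPH oxidases, 10 of 13 were in the table and 7 were tested. Against monocytes 4 were higher and 2 lower in each subset, with medians of 1.09, 1.24 and 1.45 on the log2 scale against the 0.08, 0.11 and 0.10 of all genes. Of all tested genes 37.3 to 39.5% were higher and 28.1 to 31.3% lower. Each median was the value of Noxo1, at means of 1.70 CPM in monocytes and 3.60, 3.99 and 4.62 CPM in the subsets. The higher genes included a gene with SEs of 2.04, 1.93 and 1.89 on the log2 scale. Rac1, the widely expressed relative of Rac2, was at 744 ± 67.2 CPM in monocytes and at 490.3 ± 18.5, 445 ± 12.9 and 448 ± 13.0 CPM (SD) in the subsets (log2 fold changes -0.60, -0.74 and -0.73, all passed). Rap1a, a small GTPase found with the flavocytochrome, went from a mean of 226 CPM in monocytes to 117, 114 and 102 CPM. Hvcn1, the proton channel that balances the charge carried by the oxidase, moved the other way, from a mean of 6.81 CPM to 79.4, 90.7 and 76.4 CPM (log2 fold changes 3.54, 3.74 and 3.49; adjusted p = 8.5e-13, 3.9e-13 and 7.4e-13 by edgeR's quasi-likelihood test). Hvcn1 is also expressed by B cells, whose summed markers were higher in the macrophage libraries too, and their part in its level was not tested. Between subsets the lowest adjusted p of the 7 genes was 0.27, 0.056 and 0.30.

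**Figure D3:**
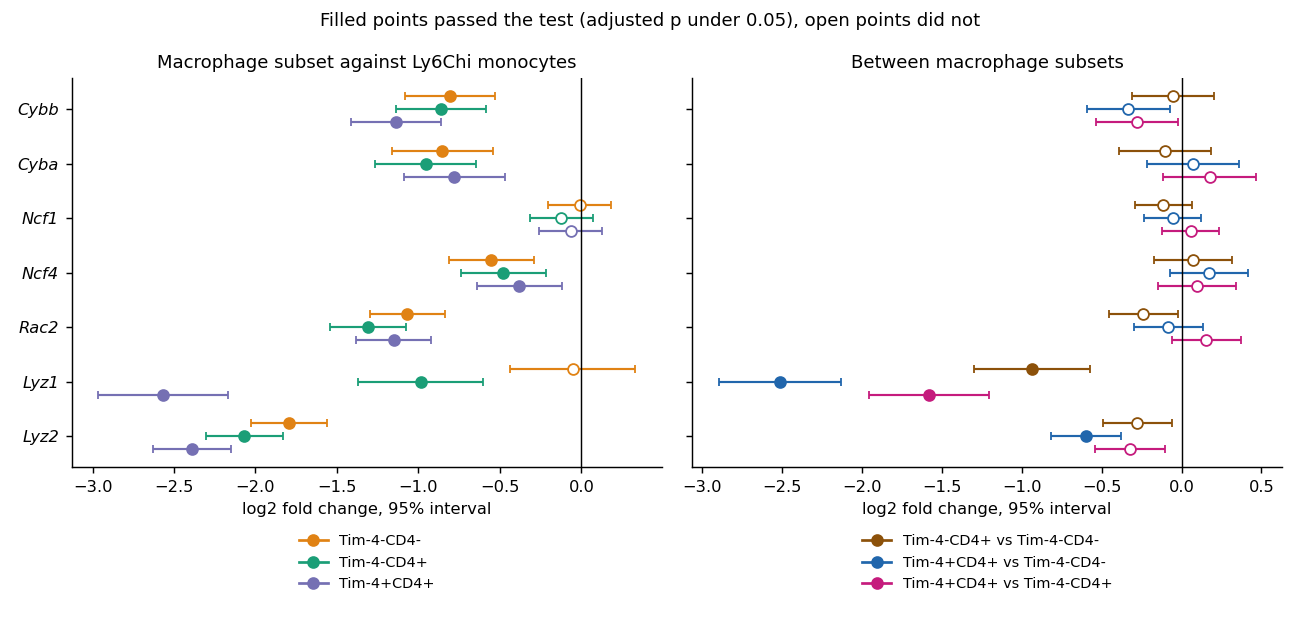
Log2 fold change of 7 of the genes in the 6 comparisons, with 95% intervals as bars; filled points passed edgeR's quasi-likelihood test at an adjusted p under 0.05, and Nos2 and Mpo are left out because of their few counts. The oxidase subunits other than Ncf1 lie below 0 against monocytes, and no oxidase subunit passed between subsets. Intervals there still lie below 0 for Cybb in Tim-4+CD4+ macrophages against each other subset. The same holds for Rac2 in Tim-4-CD4+ against Tim-4-CD4- macrophages. Lyz1 passed, below 0, in 5 of the 6 comparisons.

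Lysozyme transcripts differed between macrophage subsets, with means that were highest in Tim-4-CD4- cells, lower in Tim-4-CD4+ cells and lowest in Tim-4+CD4+ cells. Lyz2 (ENSMUSG00000069516.7, chromosome 10, 117277331 to 117282321, minus strand) was at 24904, 20175 and 21141 CPM in monocytes, at 5974, 6785, 5889 and 6810.2 in Tim-4-CD4-, at 4959.5, 5081, 5638 and 5351 in Tim-4-CD4+ and at 4966, 4308, 4008 and 3543 in Tim-4+CD4+ macrophages. It was the most counted gene in all 3 monocyte libraries, with 2.20 to 2.52% of all counts, and ranked 8th to 18th in macrophages with 0.360 to 0.668%. The log2 fold changes against monocytes were -1.79 ± 0.11, -2.07 ± 0.11 and -2.39 ± 0.11 (SE; 3.47-, 4.20- and 5.25-fold lower; adjusted p = 4.0e-10, 5.3e-11 and 7.9e-12 by edgeR's quasi-likelihood test).

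Among macrophages Lyz2 was 1.51-fold lower in Tim-4+CD4+ than in Tim-4-CD4- cells (log2 fold change -0.60 ± 0.10, SE, adjusted p = 0.00043 by edgeR's quasi-likelihood test), with no overlap of libraries. The steps between were smaller and did not pass: -0.28 from Tim-4-CD4- macrophages to the Tim-4-CD4+ subset (adjusted p = 0.11) and -0.32 from there to Tim-4+CD4+ (adjusted p = 0.12). Without Tim-4+CD4+ replicate 1, whose 4966 CPM was the highest of its group, the last step was -0.41 and passed (adjusted p = 0.033, range over the alternatives 0.033 to 0.30). The middle population could thus not be placed apart from its neighbours in the fit of all libraries.

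Lyz1 (ENSMUSG00000069515.5, chromosome 10, 117287797 to 117292868, minus strand) was far less abundant but differed more. It was at 49.2, 33.4 and 37.5 CPM in monocytes, at 32.3, 50.01, 32.9 and 39.2 in Tim-4-CD4-, at 18.2, 17.8, 25.3 and 19.4 in Tim-4-CD4+ and at 8.11, 7.31, 6.22 and 5.31 in Tim-4+CD4+ macrophages. Monocytes and Tim-4-CD4- macrophages overlapped, and the other groups stood clear of them and of each other. Between subsets Lyz1 was 1.91-fold lower in Tim-4-CD4+ than in Tim-4-CD4- macrophages (log2 fold change -0.93 ± 0.17, SE, adjusted p = 0.0018), 2.99-fold lower again in Tim-4+CD4+ macrophages (-1.58 ± 0.18, adjusted p = 3.1e-05) and 5.71-fold lower over the whole range (-2.51 ± 0.18, adjusted p = 4.0e-08, all by edgeR's quasi-likelihood test). Against monocytes the log2 fold changes were -0.05 in Tim-4-CD4- cells (95% interval -0.44 to 0.33, adjusted p = 0.81), -0.99 in Tim-4-CD4+ cells (adjusted p = 0.00014) and -2.57 in Tim-4+CD4+ macrophages (adjusted p = 2.6e-09). The sign of the first turned under upper-quartile scaling, with thinned counts, with a replicate block and without single libraries.

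Per kb of exon Lyz2 exceeded Lyz1 in every population, 16773 against 31.7 CPM per kb in monocytes, 4836 against 30.6 in Tim-4-CD4-, 3995 against 16.0 in Tim-4-CD4+ and 3196 against 5.33 in Tim-4+CD4+ macrophages. The share of Lyz1 in the counts of both genes was 0.197, 0.165 and 0.177% in monocytes, 0.537, 0.732, 0.555 and 0.572% in Tim-4-CD4- macrophages, 0.367, 0.348, 0.447 and 0.361% in Tim-4-CD4+ and 0.163, 0.169, 0.155 and 0.150% in Tim-4+CD4+ macrophages. The mean share was highest in Tim-4-CD4- macrophages (0.599 ± 0.0896%, SD, n = 4). Those cells had about the Lyz1 level of monocytes at a much lower Lyz2 level. The mean share was alike in monocytes (0.180 ± 0.016%, n = 3) and Tim-4+CD4+ macrophages (0.159 ± 0.0087%, n = 4), although Lyz2 was lower in the latter. Whether reads of Lyz2 made up part of the share was not tested. Each pair of macrophage subsets differed without overlap (exact permutation test, two-sided, p = 0.0286, the smallest that 4 against 4 libraries allow; 0.0571 after Benjamini-Hochberg adjustment over 6 comparisons). Against monocytes the exact permutation p was 0.0571 for both Tim-4- subsets, the smallest that 3 against 4 libraries allow, and 0.114 for Tim-4+CD4+ macrophages, or 0.0686, 0.0686 and 0.114 after adjustment.

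**Figure D4:**
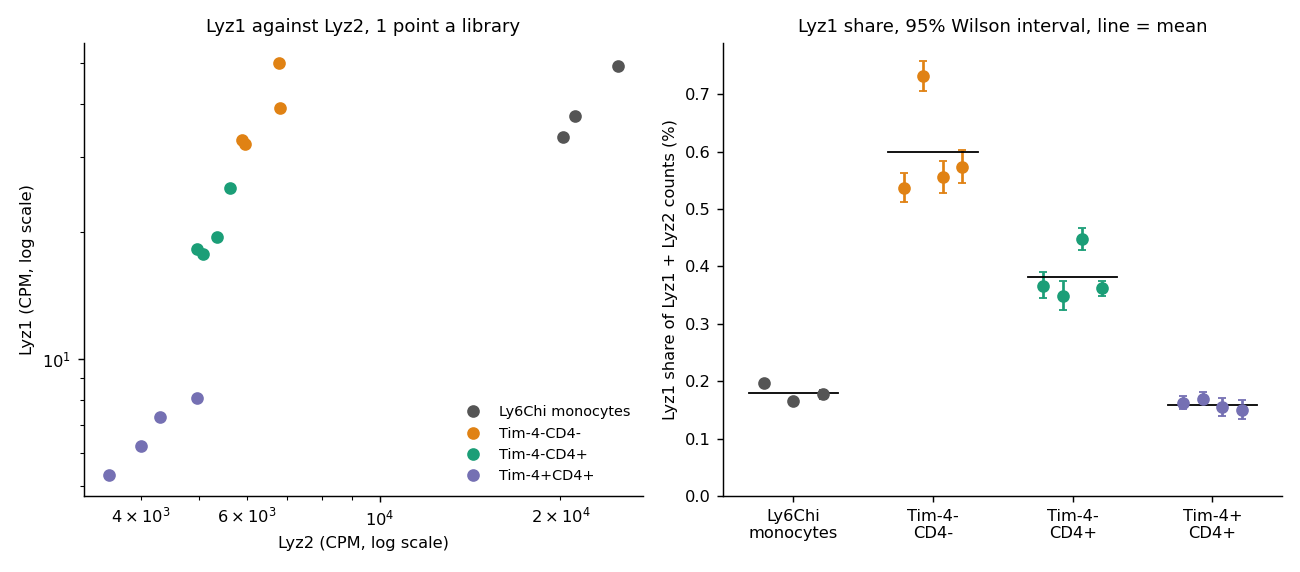
Left, Lyz1 against Lyz2 level in CPM (log axes); right, the share of Lyz1 in the counts of both genes (percent) by population, with its 95% Wilson interval as a bar and the group mean as a line; each point is a library. The Lyz1 share was 0.537 to 0.732% in Tim-4-CD4- macrophages and 0.150 to 0.169% in Tim-4+CD4+ macrophages.

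Lyz1 is known from Paneth cells, so their other genes were summed beside it. Of 12 Paneth cell markers 9 were in the table, and their summed level was 0 to 0.00708 CPM in monocytes, 1.35 to 2.11 in Tim-4-CD4-, 0.910 to 1.94 in Tim-4-CD4+ and 2.86 to 3.28 in Tim-4+CD4+ macrophages. These markers were highest in the subset in which Lyz1 was lowest, and 8 of the 9 had no count in any monocyte library, where Lyz1 was at 33.4 to 49.2 CPM. The part of Paneth cell transcripts in the level of Lyz1 was not tested. Of the other lysozyme family genes 2 of 8 were in the table, Lyzl4 and Lalba, the latter encoding the milk protein alpha-lactalbumin. Lyzl4 and Lalba are named outside the rule for named genes, after their values were seen. Lyzl4 had 0, 6, 40 and 135 counts over the libraries of monocytes and of the macrophage subsets in the order used above, and Lalba had 1, 68, 107 and 464. The groups differed in depth, and the mean levels were 0, 0.0291, 0.106 and 0.385 CPM for Lyzl4. For Lalba they were 0.00324, 0.356, 0.321 and 1.32 CPM, and the Tim-4- subsets did not differ by the test (log2 fold change -0.14). Both were higher in Tim-4+CD4+ than in Tim-4-CD4- macrophages (adjusted p = 0.0038 to 0.014 by edgeR's quasi-likelihood test) at levels under those of Lyz1. Tim-4+CD4+ replicate 1, the library that stood apart, held 54 of the 135 Lyzl4 counts and 238 of the 464 Lalba counts of its group. It was the highest of that group for both (ranges 0.322 to 0.526 and 0.809 to 2.32 CPM). These differences were not tested without it.

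Nos2 (ENSMUSG00000020826.7, chromosome 11, 78920787 to 78960254, plus strand) was detected at a low level in every macrophage library and in 1 of 3 monocyte libraries. It was at 0.475, 0.235, 0.151 and 0.311 CPM in Tim-4-CD4-, at 0.220, 0.101, 0.0256 and 0.459 in Tim-4-CD4+ and at 0.350, 0.0947, 0.161 and 0.116 in Tim-4+CD4+ macrophages. The monocyte libraries held 1 count in all, and the subsets overlapped. The ratio of pooled CPM to monocytes was 88.1 in Tim-4-CD4- cells (95% exact interval 15.2 to 3537), 79.9 in Tim-4-CD4+ cells (13.97 to 3192) and 55.8 in Tim-4+CD4+ macrophages (9.67 to 2239), intervals that cover counting error only. In edgeR's quasi-likelihood test the adjusted p was 0.00058, 0.0011 and 0.0014 against monocytes and at least 0.56 between subsets. Tim-4-CD4+ replicate 4 held 68 of the 86 counts of its group, and without it the ratio to monocytes was 31.1 (4.91 to 1296). Tim-4+CD4+ replicate 1, the library that stood apart, held 36 of the 64 counts of its group, and without it the ratio was 34.9 (5.78 to 1428). The single monocyte count, in replicate 3, set the size of all of these ratios. Without monocyte replicate 1 they were 46.3, 42.03 and 29.4, without replicate 2 they were 57.7, 52.3 and 36.5, and without replicate 3, with 3 counts as the floor of the remaining monocytes, the subsets were at least 24.05-, 21.8- and 15.2-fold higher.

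Mpo (ENSMUSG00000009350.13, chromosome 11, 87793581 to 87804413, plus strand) was at the edge of detection. It was at 0.262, 0.963 and 0.0743 CPM in monocytes, at 0.0730, 0.0168, 0.0862 and 0.0518 in Tim-4-CD4- and at 0.0733, 0, 0 and 0.00675 in Tim-4-CD4+ macrophages, and had no count in the 4 Tim-4+CD4+ libraries. The groups held 140, 11, 5 and 0 counts. The pooled level was 8.53-fold lower than in monocytes in Tim-4-CD4- cells (95% exact interval 4.62 to 17.5), 30.1-fold lower in Tim-4-CD4+ cells (12.6 to 94.3) and at least 53.5-fold lower in Tim-4+CD4+ macrophages, taking 3 counts over the group as the floor. Monocyte replicate 2 held 99 of the 140 counts, and without it the level was 3.81-fold (1.93 to 8.23) and 13.5-fold (5.33 to 43.7) lower in the Tim-4- subsets and at least 23.9-fold lower in Tim-4+CD4+ macrophages. Without Tim-4+CD4+ replicate 2 the latter bound was 35.3. Tim-4-CD4+ replicate 1 held 4 of the 5 counts of its group, and without it the level there was 125-fold lower (22.1 to 4972). Neutrophils are rich in the protein and their precursors in the transcript. Among neutrophil markers, S100a8, S100a9 and Cxcr2 were at means of 1.21, 0.413 and 0.199 CPM in monocytes, and the summed level of 607 to 661 CPM came from Csf3r (mean 454 CPM) and Mmp8 (186 CPM).

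Tiam1 fell and Fpr1 and Prkca rose among the genes that activate the oxidase. Of the 17 listed genes, 3 were higher and 9, 13 and 12 lower than in monocytes in the macrophage subsets, in the same order, with medians of -0.36, -0.37 and -0.58 on the log2 scale. Over all tested genes 37.3, 39.1 and 39.5% were higher and 28.1, 30.7 and 31.3% lower, with medians of 0.08, 0.11 and 0.10. Tiam1, an exchange factor of Rac, went from a mean of 282 CPM in monocytes to 24.4, 4.93 and 2.51 CPM, with log2 fold changes of -2.31, -3.28 and -0.97 between subsets that all passed. Fpr1, a receptor for formylated bacterial peptides, rose in the same order, at means of 3.47, 13.1, 21.1 and 41.1 CPM, and passed in all 6 comparisons. Prkca, a protein kinase C, was at 0.488 CPM in monocytes and at 11.1, 24.2 and 27.3 CPM in the subsets. Between subsets 2 of the 17 were higher and 3 lower, 2 higher and 4 lower, and 1 higher and 1 lower. In these comparisons 10.1, 23.1 and 3.41% of all tested genes passed.

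Of 12 genes that remove superoxide and peroxide, 3, 2 and 2 were higher and 6, 7 and 7 lower than in monocytes (medians -0.27, -0.33 and -0.40). All tested genes had 37.3 to 39.5% higher and 28.1 to 31.3% lower (medians 0.08, 0.11 and 0.10). Prdx6, a peroxiredoxin, fell from a mean of 94.6 CPM to 39.4, 25.1 and 23.3 CPM. Sod2, the mitochondrial superoxide dismutase, was higher in Tim-4-CD4- macrophages (83.6 CPM) than in monocytes (65.7 CPM) and was at 63.4 and 62.8 CPM in the CD4+ subsets, both lower than in the Tim-4-CD4- subset. Sod3, the secreted form, had no count in monocytes and means of 1.32, 1.48 and 2.93 CPM in the subsets.

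Of 14 nitric oxide and arginine genes, 7 were higher and 4, 5 and 5 lower than in monocytes (medians 0.36, 0.40 and 0.58). The shares of all tested genes were 37.3 to 39.5% higher and 28.1 to 31.3% lower (medians 0.08, 0.11 and 0.10). Ass1, which remakes arginine from citrulline, went from a mean of 31.8 CPM to 11.3, 1.96 and 0.966 CPM and passed in all 6 comparisons. Gch1, which makes the tetrahydrobiopterin that Nos2 needs, fell from 37.5 to 13.0, 7.71 and 7.29 CPM. Ass1 and Gch1 were thus lower in macrophages than in monocytes, while Nos2 was higher. Slc7a2 and Ddah2, chosen by the same rule, were higher in macrophages too and passed against monocytes in every subset. Slc7a2 went from a mean of 0.314 CPM in monocytes to 0.749, 2.38 and 1.58 CPM, and Ddah2 from 0.547 to 3.10, 2.69 and 2.51 CPM. Arg1, the arginase of alternative activation, was at a mean of 0.496 CPM or less in every population. Nos3, the endothelial synthase, was at 0.0746 CPM in monocytes and 0.664, 0.501 and 1.16 CPM in the subsets.

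Of 14 granule enzyme genes 9 were tested, and 2 were higher and 6 lower than in monocytes in each subset, with medians of -5.84, -5.36 and -5.41 that rest on genes with few counts. For all tested genes the shares were 37.3 to 39.5% higher and 28.1 to 31.3% lower (medians 0.08, 0.11 and 0.10). Chil3, a chitinase-like protein of monocytes and neutrophils, fell from a mean of 1647 CPM to 1.44, 1.25 and 0.432 CPM, and Mmp8, the neutrophil collagenase, from 186 CPM to 1.01, 0.243 and 0.155 CPM. Mmp9, a gelatinase, moved the other way, from 1.16 CPM to 1533, 3077 and 2157 CPM, and passed in all 6 comparisons. Elane, neutrophil elastase, was like Mpo at the edge of detection, with a mean of 0.383 CPM in monocytes and at most 0.0128 CPM in the subsets.

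**Figure D5:**
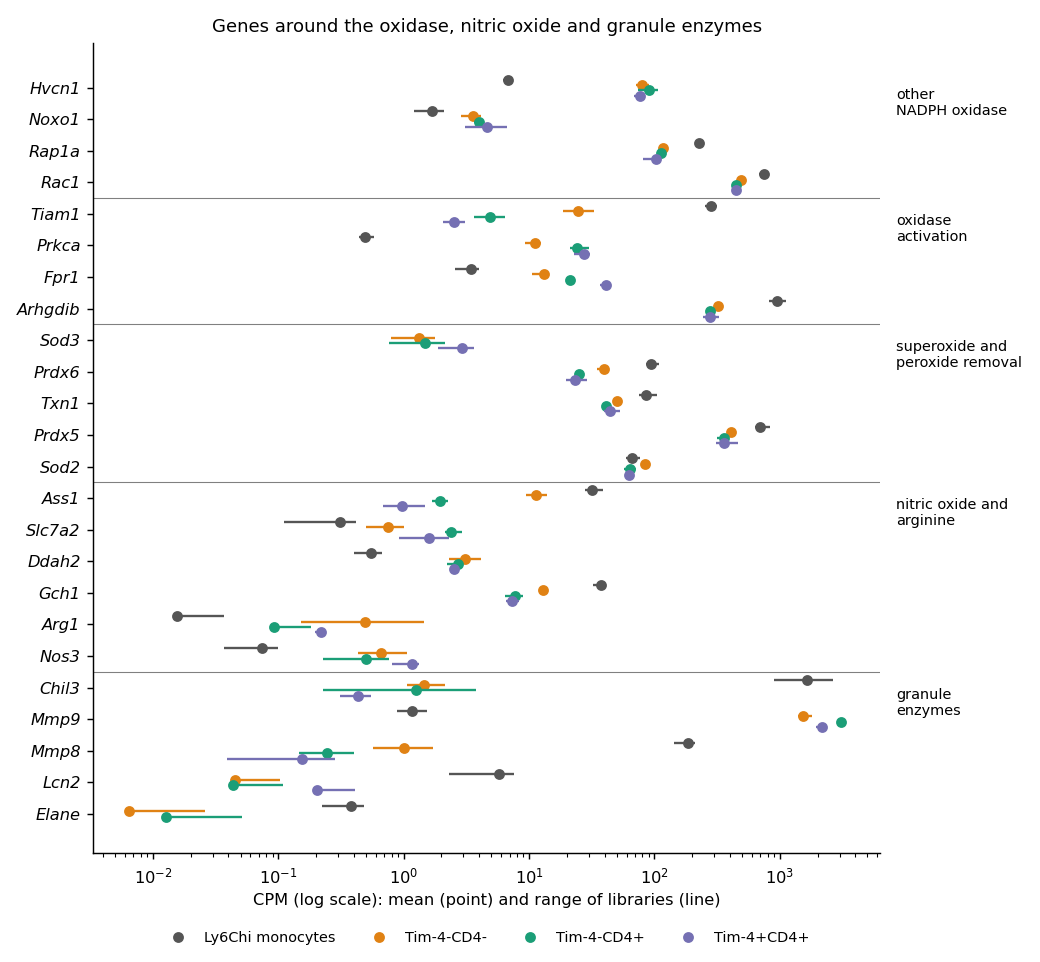
Mean level in CPM (log axis) of selected genes of the pathway lists by population, with a line from the lowest to the highest library; where the lowest library is at 0 the line starts at the mean, and means of 0 are not drawn. Mmp9, Hvcn1, Fpr1 and Prkca lie higher in macrophages, and Chil3, Tiam1 and Ass1 lower.

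Correlations across the 12 macrophage libraries hold the differences between subsets as well as shared depth, sorting and length effects. They were not taken within subsets. The lysozymes, whose means fell in the same order over the subsets, went together (Pearson r = 0.954 between Lyz1 and Lyz2 in log2 CPM). Cybb had correlations of -0.747 with Cyba and -0.831 with Ncf4. The latter pair rested largely on Tim-4+CD4+ replicate 1, without which they were -0.329 and -0.485 over 11 libraries, against 0.983 for the lysozymes. Of 11798 genes, the levels most like those of Lyz1 were Nxpe3 (r = 0.986), Agpat4 (0.984) and Slamf8 (0.984), and those most like Lyz2 were Cd14 (0.977), Tmem176a (0.967) and Nxpe3 (0.962). Nxpe3 was in both sets. Most like Cybb were Slc4a7 (0.976), Efr3a (0.974) and Osbpl8 (0.973), and most like Cyba were Npepl1 (0.959), Oaz1 (0.940) and Zmat5 (0.939). Most like Ncf1 were Zfp385a (0.926), Selenbp1 (0.905) and Plekho2 (0.899). Ncf4 was followed by Spsb3 (0.953), D730003I15Rik (0.945) and Rbck1 (0.943), and Rac2 by Anapc2 (0.940), Necap2 (0.928) and Babam1 (0.924). Without Tim-4+CD4+ replicate 1 the correlations with these genes were 0.825 or more, and some of the genes ranked as low as 23rd in likeness.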

How the data were processed

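RNA from FACS-sorted cells was sequenced as stranded mRNA libraries with paired reads of 65 bases. Per the labels and the study's methods, the authors demultiplexed reads with bcl2fastq 2.17.1.14, trimmed them with Trimmomatic 0.36, aligned them with STAR to GRCm38.p4 with GENCODE annotation, and used HTSeq 0.6.1p1 to count those that mapped to 1 place, by gene. The deposited counts are whole reads per gene and were used as deposited. Further columns of the deposited table hold a normalised signal, the same counts divided by 1 size factor per library by the authors, and were used only to check the counts. Gene symbols and positions came from GENCODE M21 on GRCm38, which held 19421 of the 19456 identifiers, matched without their version. Genes were filtered with filterByExpr (15802 kept), scaled by TMM and tested with the quasi-likelihood test of edgeR 4.0.16 (R 4.3.3) in 1 fit of all 15 libraries without a replicate block, with Benjamini-Hochberg adjustment over all tested genes, after tests on simulated data. Sums and shares were computed in Python 3.11.15 with scipy 1.17.1. Alternatives were DESeq2 1.42.0, other scalings and filters, fits of 2 populations, replicate blocks, thinned counts and leaving out each library. Each library is a pool of mice, and p-values measure the spread between pools. Intervals on counts cover counting error only. Genes named were every gene of the set, up to 4 genes of each list that passed at a mean of 1 CPM or more, by size of change, a few fixed genes (Sod2, Arg1, Elane and Nos3), and the 3 genes of the highest correlation with each. Leaving out libraries from pooled ratios and from correlations was chosen after seeing the data. One further oxidase gene is not reported here. The genes and lists were chosen with earlier results of these data known.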

Additional observations from a re-analysis of the deposited data

Results flagged for a closer look

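In 13 of 114 groups of 4 libraries, 1 library lay farther from the others than Dixon's test allows at 95%. Chance gives about 1 in 20 for independent, normally distributed values. These groups share libraries and include genes with few counts, so the number flagged is not read against that rate. Among the 9 genes these were Cyba in Tim-4-CD4- replicate 2 (250.1 CPM) and in Tim-4+CD4+ replicate 1 (358 CPM), the library in which short genes were high, and Mpo in Tim-4-CD4+ replicate 1 (0.0733 CPM, from 4 counts). Tim-4+CD4+ replicate 1 also stood out for Ly6c2 (1.05 CPM) and Prdx5 (467 CPM). Tim-4-CD4+ replicate 1 stood out for Prdx5 (315 CPM) and Chil3 (3.79 CPM). Others were Rac1 in Tim-4-CD4- replicate 1 (463 CPM), Sod2 in Tim-4-CD4- replicate 2 (91.7 CPM) and Arg1 in Tim-4-CD4- replicate 1 (1.44 CPM). Nos3 was flagged in Tim-4+CD4+ replicate 2 (0.800 CPM). Elane was flagged in Tim-4-CD4- replicate 4 (0.0259 CPM) and Tim-4-CD4+ replicate 3 (0.0511 CPM). In both Elane groups the other libraries had no count, so that any count in 1 library would be flagged.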

How the results depend on the processing

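Of 1145 values of the 8 genes of the main fit under 24 alternatives, 1105 kept their direction and their side of the threshold. Mpo, which the filter removed, is not among them. For Tim-4-CD4+ against Tim-4-CD4- macrophages, 3 of the genes passed in a fit of those subsets alone, Rac2 and Lyz2 being added; leaving out a library gave 1033 to 2203 genes in all (lowest without Tim-4-CD4+ replicate 4) against 1589. For Tim-4+CD4+ against Tim-4-CD4+ macrophages, DESeq2 called 917 genes in all against 539, and leaving out a library gave 1 to 2 of the 9 genes. Values that turned sign had not passed the test. For Ncf1 in Tim-4-CD4- macrophages against monocytes these were 0.020 with DESeq2, 0.020 with RLE, 0.056 with upper-quartile scaling, 0.023 with genes at a mean of 1 CPM or more, 0.033 with only those populations and 0.035 with thinned counts, and -0.030 to 0.072 when a library was left out. For Lyz1 in the same comparison they were 0.012 with upper-quartile scaling, 0.0082 with the replicate block by description number and 0.0049 with thinned counts, and -0.19 to 0.15 when a library was left out. For Ncf1 in Tim-4+CD4+ macrophages against monocytes it was 0.051 with upper-quartile scaling and -0.067 to 0.024 when a library was left out. Leaving out a library gave -0.11 to 0.0068 for Cybb in Tim-4-CD4+ against Tim-4-CD4-, -0.074 to 0.13 for Cyba in Tim-4+CD4+ against Tim-4-CD4- cells, and, in Tim-4+CD4+ against Tim-4-CD4+ macrophages, -0.0030 to 0.17 for Ncf4 and -0.77 to 0.69 for Nos2, which was 0.058 with the block by title number and 0.046 with thinned counts. Ncf4 in Tim-4+CD4+ macrophages against monocytes no longer passed with upper-quartile scaling (-0.26) or with only those populations (-0.35). Without the filter on low counts, and with DESeq2, Mpo passed against monocytes in every subset. Upper-quartile scaling put the median log2 fold change of all genes against monocytes at 0.15, 0.19 and 0.21, in place of 0.08, 0.11 and 0.10. The causes were not tested.

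Replicate numbers are shared between populations but name no shared animal or sort. With the titles' numbers 0 of 12 macrophage libraries were nearest to one of the same number, and correlations of deviations were -0.123 to 0.134; with the numbers in the descriptions, which differ, it was 5 of 12 and -0.0888 to 0.161. A replicate block by either number left 6, 7, 7, 1, 2 and 1 of the genes past the test in the 6 comparisons, as without it, and gave 9979, 10635, 10869, 1294, 3267 and 431 genes in all by title and 10225, 10902, 11137, 1575, 3666 and 506 by description. Depth limits the results on Mpo and Nos2, whose groups held at most 140 counts.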
